A study of Mus musculus with 6 samples.

Results

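The genes described here make and carry amino acids and pass on the 1-carbon units that folate holds, and they were chosen by symbol and known function from the table of cultured mouse ovary. The rule itself uses no measured value, but it was written with earlier results of these data known. All 43 symbols were found among its 26329 genes. They fall into 15 genes of amino acid synthesis, 8 enzymes of folate 1-carbon metabolism and 20 amino acid transporters of the solute carrier (Slc) families. A mean of at least 1 FPKM (fragments per kilobase of gene, corrected for library size) over the 6 libraries was needed for the test. It was reached by 40 of the 43, and by 12922 genes in all.

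RNA sequencing was done on 3 Control libraries, from ovaries cultured with the solvent DMSO, and on 3 ISRIB libraries, from ovaries cultured with ISRIB in DMSO. Strain, age of the ovaries, dose and time in culture are not given for these libraries in the sources used here, nor is it said whether the replicates were separate animals or cultures, so the p-values rest on a spread that may be technical. The series asks by its title whether blocking the integrated stress response sets resting (primordial) follicles growing through mTOR. The libraries are of whole ovary, in which fewer cells of a type and less RNA per cell cannot be told apart. Defining markers were present in every library, with the granulosa factor Foxl2 at 137 to 163 FPKM and the germ cell gene Ddx4 at 15.8 to 16.6 FPKM.

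The integrated stress response is a brake on translation. Stress kinases, among them the amino acid sensor GCN2, phosphorylate the initiation factor eIF2, most protein synthesis slows, and translation of the transcription factor ATF4 goes up. ATF4 switches on a program that replenishes amino acids: asparagine, serine, glycine and proline synthesis, the mitochondrial arm of folate metabolism, and the carriers that bring amino acids in. ISRIB binds eIF2B, the exchange factor that recharges eIF2, and so relieves the brake. Many of the genes described here are for that reason common readouts of ATF4 activity, and amino acids also feed mTOR.

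ATF4 acts through a composite element whose core can be written TGATGNAA. This string was looked for on both strands from −250 to +50 around the start sites listed by RefSeq (GRCm38.p6), where 36 of the 43 genes matched by symbol. It was present in 7 of the 36 (19.4%), and in 1219 of the 27025 genes with such a window (4.51%). The 7 were Asns, Pycr1, Pck2, Got1, Slc7a11, Slc1a4 and Slc7a7. The stretches below carry 1 place per gene, or 2 for Slc7a11, that lies wholly before the start site, and they are shown because the values of these genes are described below by this feature. A match is a description of the letters and not a site of binding. Start sites here are those of RefSeq. In GENCODE M21 Asns begins at 7693254 on chromosome 6, within its printed stretch, so that its match lies inside the gene there. The match of Slc1a4, which spans its start site, is not printed, nor is a further one of Slc7a7, which spans one listed start site and lies at −243 to −236 of another. Capitals mark the match, read along the gene or in reverse, and each stretch is written 5′ to 3′ on the strand of the gene.
Asns, chr6:7693210-7693258, minus strand, match at −23 to −16: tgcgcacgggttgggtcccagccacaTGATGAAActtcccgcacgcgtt
Slc7a11, chr3:50443627-50443705, minus strand, matches at −66 to −59 and −47 to −40: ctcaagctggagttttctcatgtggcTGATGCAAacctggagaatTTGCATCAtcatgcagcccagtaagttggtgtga
Pycr1, chr11:120643818-120643877, minus strand, match at −103 to −96: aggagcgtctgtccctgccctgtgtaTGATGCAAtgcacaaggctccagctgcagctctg
Got1, chr19:43524674-43524733, minus strand, match at −102 to −95: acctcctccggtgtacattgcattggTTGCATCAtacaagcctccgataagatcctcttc
Pck2, chr14:55540137-55540196, plus strand, match at −103 to −96: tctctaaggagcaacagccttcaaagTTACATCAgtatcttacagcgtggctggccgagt
Slc7a7, chr14:54418052-54418111, minus strand, match at −141 to −134: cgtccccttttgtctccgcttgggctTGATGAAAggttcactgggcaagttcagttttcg

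The genes ranged from under 1 to over 60 FPKM in the same ovaries. The most abundant transcripts were those of the glutamine carrier Slc38a2, at 57.5 to 65.9 FPKM over the 6 libraries, of the mitochondrial aspartate aminotransferase Got2 (51.5 to 56.2), of glutamine synthetase Glul (50.6 to 57.8) and of mitochondrial serine hydroxymethyltransferase Shmt2 (49.9 to 54.9). Got2, Glul and Shmt2 overlap in these ranges and have no order. Phgdh, the entry enzyme of serine synthesis (38.1 to 47.0 FPKM), and the leucine carrier Slc7a5 (37.8 to 45.1 FPKM) came next and also overlapped. The scarcest were the glutamate carrier Slc1a1 (0.222 to 0.666 FPKM), the arginine carrier Slc7a3 (0.355 to 0.596 FPKM) and cystathionine gamma-lyase Cth (0.693 to 1.17 FPKM), which were not tested.

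**Figure D1:**
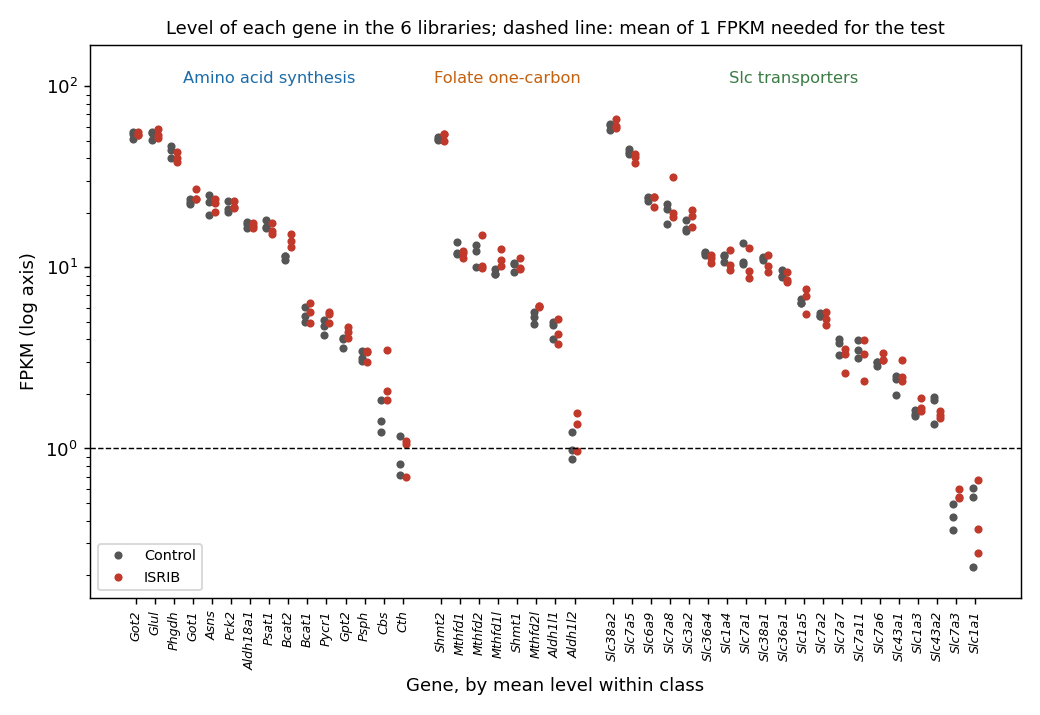
FPKM of all 43 genes on a log axis, by class and by mean level, with Control in grey and ISRIB in red and 1 point per library. Slc38a2, Got2, Glul and Shmt2 stand highest, and the 2 groups sit on top of each other for most genes. All points of Slc7a3 and Slc1a1 lie under the dashed line at 1 FPKM. Those of Cth, whose mean is under it, and of the tested Aldh1l2 lie on both sides.

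Levels between genes hold only as far as the gene lengths behind the FPKM do. The length implied by the values of Slc3a2 was 10117 bases, 3.6 times its longest GENCODE M21 transcript of 2813 bases, and that of Slc7a6 was 3.48 times and that of Gpt2 2.36 times the longest transcript. The levels of these genes are therefore low for their reads. Got2 (0.477 times) and Cbs (0.447 times) had implied lengths well under the longest transcript. Comparisons of a gene with itself between libraries do not depend on this length.

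Several of the enzymes come as a mitochondrial and a cytosolic form. Shmt2 stood at 4.45 to 5.57 times the level of cytosolic Shmt1, Got2 at 1.99 to 2.51 times that of Got1, and mitochondrial Bcat2 at 1.92 to 2.63 times that of cytosolic Bcat1. Within the mitochondrion, the folate dehydrogenase Mthfd2 had 1.64 to 2.49 times the level of its relative Mthfd2l. For the formyl-folate dehydrogenases the cytosolic form was the higher, with Aldh1l1 at 2.75 to 5.74 times the level of mitochondrial Aldh1l2. The ranges are over the 6 libraries, and each ratio of FPKM carries the lengths used for both genes, which against the longest transcript were short for Got2, Mthfd2l (0.654 times) and Aldh1l1 (0.794 times) and long for Bcat2 (1.62 times) and Aldh1l2 (1.55 times). The levels of the 2 forms are therefore not on an equal footing, and the ratios serve to compare libraries.

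No gene of the 3 classes passed the test between ISRIB and Control. With limma on log2(FPKM + 0.5), 0 of 40 had an adjusted p under 0.05, where 0% of all genes tested did. At an unadjusted p under 0.05, 4 of the 40 were higher in ISRIB (beside 8.71% of all genes tested) and 0 were lower (beside 7.73%). With limma's voom on whole reads worked back from the FPKM, 0.929% of the genes tested passed, and 0 of the 40. Of the 40 genes 22 had a higher and 18 a lower estimate in ISRIB, a share of 55.0% higher beside 51.8% of all genes tested. Their median log2 fold change was 0.02, beside 0.01 for all genes tested, and the fold changes ran from −0.21 to 0.54.

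For 5 of the 40 genes (12.5%) each ISRIB library exceeded each Control library, beside 10.8% of all genes tested. These were Bcat2, Got1, Mthfd1l, Mthfd2l and Slc7a6. For 1 gene, Slc36a4 (2.5%), each ISRIB library was under each Control library, beside 12.0% of all genes tested. The share above is near that of all genes tested. The precision was similar for most genes: the 95% interval lay within ±0.5 on the log2 scale for 35 of the 40, and its half-width was 0.19 at the median.

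**Figure D2:**
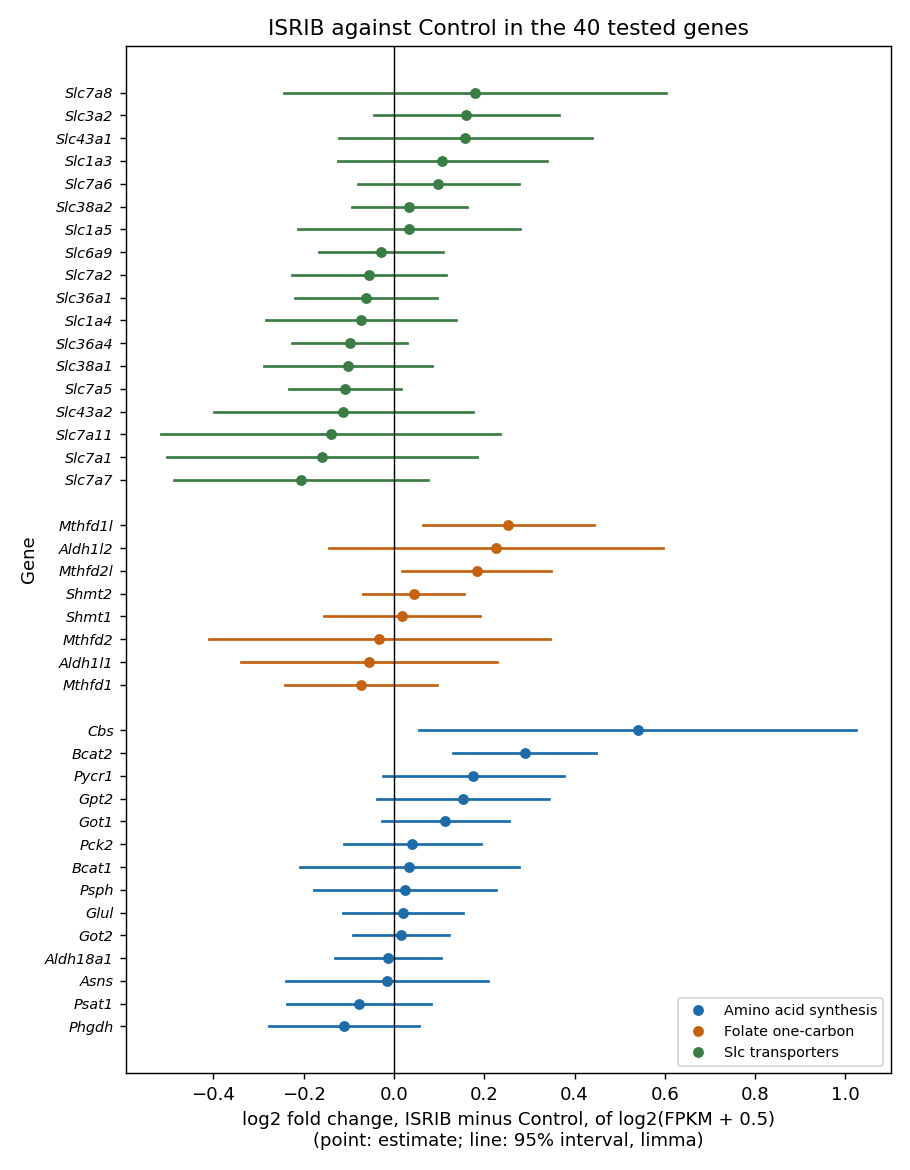
Log2 fold change of ISRIB minus Control on the log2(FPKM + 0.5) scale for the 40 tested genes, as points, with 95% intervals from limma as lines, coloured by class and ordered by size. The intervals of Cbs, Bcat2, Mthfd1l and Mthfd2l lie above 0, none lies below it, and the other 36 cross it.

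In amino acid synthesis, 10 of the 14 tested genes had a higher and 4 a lower estimate, and the median was 0.03 (−0.00218 without ISRIB replicate 3). The genes that ATF4 is best known for overlapped between groups. Asns, asparagine synthetase, measured 19.5, 25.0 and 23.1 FPKM in Control and 23.7, 20.1 and 22.7 in ISRIB. All 3 ISRIB libraries lay within the Control range, and the log2 fold change was −0.02 (95% interval −0.24 to 0.21, limma adjusted p = 0.950). The serine pathway, in which Phgdh, Psat1 and Psph act one after the other, also overlapped at every step.

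Phgdh had 40.1, 44.8 and 47.0 FPKM in Control and 38.1, 43.6 and 40.2 in ISRIB (log2 fold change −0.11, 95% interval −0.28 to 0.06). Psat1, the aminotransferase of the second step, had 16.7, 18.2 and 16.4 FPKM in Control and 17.6, 15.2 and 15.8 in ISRIB (−0.08, 95% interval −0.24 to 0.08). Psph, the phosphatase of the last step, had 3.04 to 3.46 FPKM in Control and 3.01 to 3.44 in ISRIB (0.02, 95% interval −0.18 to 0.22). None of these intervals reaches 0.5 in either direction. Phgdh has a pseudogene copy in GENCODE (Phgdh-ps1), as has Got2 (Got2-ps1), so reads of these genes could be split in counting.

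Bcat2, the mitochondrial aminotransferase that starts the breakdown of leucine, isoleucine and valine, had the smallest adjusted p of the 40 genes. It measured 11.02, 11.62 and 11.58 FPKM in Control and 14.0, 12.9 and 15.3 in ISRIB. Every ISRIB library lay above every Control library, and the Control libraries were close together. The means were 11.4 ± 0.337 and 14.1 ± 1.197 FPKM (SD, n = 3 each), which is 0.29 on the log2 scale (SE 0.0689, 95% interval 0.13 to 0.45, limma adjusted p = 0.119). Bcat2 lies on chromosome 7 (45570153 to 45589711, plus strand, GRCm38), and 15.9% of its exonic bases also belong to the noncoding gene 0610005C13Rik. Its cytosolic relative Bcat1 overlapped between the groups (4.99, 5.41 and 6.04 FPKM in Control, 5.64, 4.91 and 6.35 in ISRIB), and the ratio of Bcat2 to Bcat1 was 2.21, 2.15 and 1.92 in Control and 2.48, 2.63 and 2.41 in ISRIB.

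Cbs, cystathionine beta-synthase, which takes homocysteine toward cysteine, had the largest fold change and also the largest spread. It measured 1.42, 1.23 and 1.85 FPKM in Control and 2.07, 1.84 and 3.49 in ISRIB. The log2 fold change was 0.54 (SE 0.209, 95% interval 0.06 to 1.02, limma adjusted p = 0.260). ISRIB replicate 3 alone stood far up, ISRIB replicate 2 lay within the Control range, and without ISRIB replicate 3 the log2 fold change was 0.31. The 10 granulosa markers also had their highest sum in that library. The sums were 524, 574 and 638 FPKM in Control and 583, 596 and 720 in ISRIB. Not every marker followed the sum. Kitl was lowest in that library, with 39.4, 33.8 and 32.7 FPKM in Control and 29.7, 32.0 and 23.1 in ISRIB. Amhr2, Fst and Fshr were highest in other libraries. Between the groups, 6 of 9 tested markers had a higher and 3 a lower estimate in ISRIB, and none was at 0. The 8 stroma markers also had their highest sum in ISRIB replicate 3. These sums were 1591, 1589 and 1675 FPKM in Control and 1540, 1594 and 1725 in ISRIB. Of the stroma markers, Col3a1, Pdgfra, Tcf21 and Nr2f2 were highest in Control libraries. Between the groups, 4 stroma markers had a higher and 4 a lower estimate in ISRIB. The part of the granulosa or stroma markers in the Cbs result was not tested. Cbs lies on chromosome 17 (31608894 to 31637238, minus strand) and had 130 to 346 reads per library. The next enzyme of that route, Cth, had 47 to 74 reads, with 0.715 to 1.17 FPKM in Control and 0.693 to 1.10 in ISRIB.

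Proline synthesis was represented by both of its enzymes. Aldh18a1, which makes the proline precursor, had 16.6 to 17.8 FPKM in Control and 16.6 to 17.6 in ISRIB (log2 fold change −0.01, 95% interval −0.13 to 0.10). Pycr1, the reductase that completes proline, had 4.74, 5.10 and 4.26 FPKM in Control and 4.93, 5.66 and 5.52 in ISRIB (0.18, 95% interval −0.03 to 0.38, limma adjusted p = 0.353). ISRIB replicate 1 lay within the Control range of Pycr1 and the other 2 ISRIB libraries above it.

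The aminotransferases of alanine and aspartate were close between groups. Gpt2, the mitochondrial alanine aminotransferase, had 3.60 to 4.10 FPKM in Control and 4.09 to 4.70 in ISRIB (log2 fold change 0.15, 95% interval −0.04 to 0.34). Got1 had 22.4, 22.9 and 23.7 FPKM in Control and 27.1, 24.0 and 23.8 in ISRIB (0.11, 95% interval −0.03 to 0.25). Its groups did not overlap, but 2 ISRIB libraries stood within 1 FPKM of the highest Control library, and without ISRIB replicate 1 the value was 0.05. Got2 (0.02), Glul (0.02) and the mitochondrial PEP carboxykinase Pck2 (0.04) had 95% intervals of −0.09 to 0.12, −0.11 to 0.15 and −0.11 to 0.19. After TPM rescaling these 3 estimates were below 0.

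**Figure D3:**
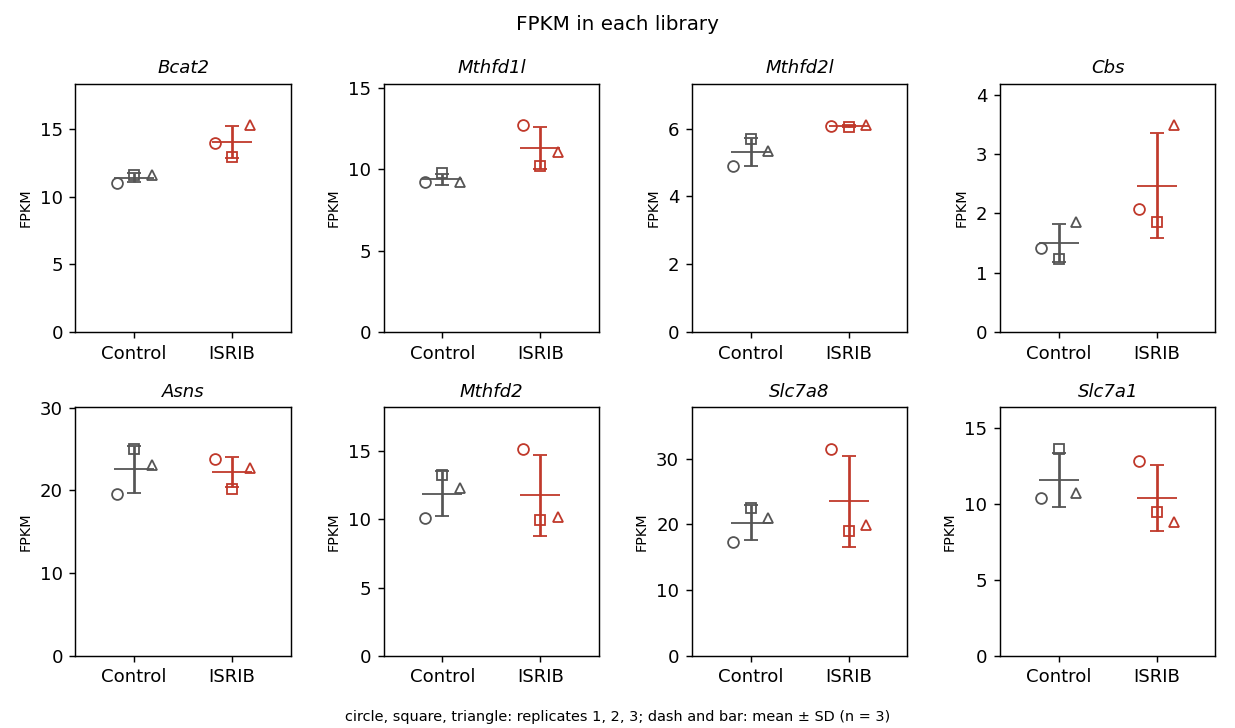
FPKM of 8 genes in each library, on linear axes from 0, with replicates 1, 2 and 3 as circle, square and triangle, Control in grey, ISRIB in red, and the mean ± SD (n = 3) as dash and bar. In the upper row the ISRIB points of Bcat2, Mthfd1l and Mthfd2l lie above all Control points and Cbs is drawn up by ISRIB replicate 3, and in the lower row Control replicate 2 and ISRIB replicate 1 are the highest of their groups.

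Folate carries 1-carbon units that serine gives off, for purines, thymidylate and methionine, and the same reactions run in the cytosol and in the mitochondrion. Of the 8 folate enzymes, 5 had a higher and 3 a lower estimate, with a median of 0.03 (−0.00365 without Control replicate 1 and −0.0215 after TPM rescaling). The 2 with every ISRIB library above every Control library were both mitochondrial. Mthfd1l, which releases formate to the cytosol, measured 9.18, 9.75 and 9.19 FPKM in Control and 12.7, 10.2 and 11.04 in ISRIB. The means were 9.37 ± 0.3303 and 11.3 ± 1.28 FPKM (SD, n = 3 each), or 0.25 as a log2 fold change (SE 0.0821, limma adjusted p = 0.203), and 0.17 without ISRIB replicate 1. It lies on chromosome 10 (3973118 to 4167081, plus strand).

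Mthfd2l, a dehydrogenase and cyclohydrolase of the mitochondrion, measured 4.89, 5.70 and 5.35 FPKM in Control and 6.09, 6.06 and 6.11 in ISRIB. The ISRIB libraries were nearly equal and all lay above Control, with a log2 fold change of 0.18 (SE 0.0715, 95% interval 0.02 to 0.35, limma adjusted p = 0.263). It lies on chromosome 5 (90931117 to 91021368, plus strand). Its relative Mthfd2, the form that ATF4 is known to induce, had 10.1, 13.3 and 12.3 FPKM in Control and 15.2, 9.92 and 10.2 in ISRIB. ISRIB replicate 1 was the highest library and the other 2 ISRIB libraries were near the lowest Control library. The log2 fold change of Mthfd2 was −0.03 (95% interval −0.41 to 0.35), and −0.22 without ISRIB replicate 1.

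The remaining folate enzymes overlapped between groups. Shmt2 had 50.3, 51.4 and 52.6 FPKM in Control and 54.9, 49.9 and 54.3 in ISRIB. Its log2 fold change was 0.04 (95% interval −0.07 to 0.16), with the sign turned after TPM rescaling (−0.0091). Cytosolic Shmt1 had 9.41 to 10.6 FPKM in Control and 9.75 to 11.2 in ISRIB, and the cytosolic 3-function enzyme Mthfd1 had 11.9 to 13.8 and 11.3 to 12.3 FPKM. Mthfd1 had a log2 fold change of −0.07 (95% interval −0.24 to 0.10), which was −0.00362 without Control replicate 3. The ratio of Mthfd1 to Mthfd1l was 1.30, 1.22 and 1.51 in Control and 0.887, 1.21 and 1.09 in ISRIB. The ratio was lower in every ISRIB library, by a small step for ISRIB replicate 2. Most of the ratios between related enzymes did not separate the groups. Those of Shmt2 to Shmt1, Got2 to Got1, Mthfd2 to Mthfd2l and Aldh1l1 to Aldh1l2 overlapped. The formyl-folate dehydrogenases had wide intervals, with cytosolic Aldh1l1 at −0.06 (95% interval −0.34 to 0.23) and mitochondrial Aldh1l2, at 0.874 to 1.56 FPKM, at 0.23 (95% interval −0.14 to 0.60).

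Grouped by compartment, 9 of the 11 mitochondrial enzymes of both classes (81.8%) had a higher estimate in ISRIB, with a median log2 fold change of 0.15. Of the 11 cytosolic enzymes tested, 6 were higher (54.5%), with a median of 0.02. Of all genes tested 51.8% were higher, with a median of 0.01. The mitochondrial list takes in Bcat2, Mthfd1l and Mthfd2l, so it is not separate from their results above. The mitochondrial median was 0.11 after TPM rescaling, 0.10 without Control replicate 3 and 0.04 over the 9 genes left with a mean of at least 5 FPKM. Pycr1, Bcat2, Gpt2, Mthfd1l, Mthfd2l and Aldh1l2 made up the upper part of this list, while Got2, Pck2, Shmt2, Aldh18a1 and Mthfd2 lay near 0. The difference between the compartments was not tested.

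Amino acids enter cells through carriers of several Slc families, and 18 of the 20 carriers listed were tested. Of these 7 had a higher and 11 a lower estimate, with a median of −0.06, and the limma adjusted p values were 0.351 to 0.902. The median was −0.00471 without ISRIB replicate 3 and −0.11 after TPM rescaling. The heavy chain Slc3a2 (CD98) brings a set of light chains to the cell surface. Slc3a2 had 15.9, 18.3 and 16.4 FPKM in Control and 20.8, 16.7 and 19.3 in ISRIB (log2 fold change 0.16, 95% interval −0.04 to 0.37), with overlap. Its value was 0.09 without ISRIB replicate 1 and 0.247 without ISRIB replicate 2. Endothelial markers, of which 8 of 8 had a lower estimate, summed to 132, 132 and 140 FPKM in Control and 107, 119 and 120 in ISRIB. Surface epithelium markers also had a lower estimate in 8 of 8, but their sums overlapped between groups. These sums were 304, 243 and 238 FPKM in Control and 248, 241 and 238 in ISRIB, with only Control replicate 1 standing high. None of the markers of either list was at 0. Their part in the transporter values was not tested.

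Slc7a5 (LAT1), which with Slc3a2 takes up leucine and other large neutral amino acids, had the smallest adjusted p among the transporters. It measured 42.2, 45.1 and 43.1 FPKM in Control and 42.4, 37.8 and 40.8 in ISRIB. The means were 43.5 ± 1.45 and 40.3 ± 2.33 FPKM (SD, n = 3 each), and the log2 fold change was −0.11 (95% interval −0.23 to 0.01, limma adjusted p = 0.351). ISRIB replicate 1 lay just above the lowest Control library, and the other 2 ISRIB libraries below all of Control. Slc7a5 lies on chromosome 8 (121881150 to 121907694, minus strand).

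The other light chains had values on both sides of 0. Slc7a8 (LAT2) had 17.34, 22.47 and 21.03 FPKM in Control and 31.52, 19.03 and 19.97 in ISRIB (log2 fold change 0.18, 95% interval −0.24 to 0.60). That sign came from ISRIB replicate 1, without which the value was −0.05. Slc7a11, the cystine carrier of system xc-, had 3.162, 3.997 and 3.505 FPKM in Control and 3.98, 3.33 and 2.37 in ISRIB (−0.14, 95% interval −0.52 to 0.24). ISRIB replicate 3 was its lowest library, and without it the value was 0.04. Slc7a7, which exports basic amino acids, had the lowest estimate of all 40 genes, with 3.28, 4.05 and 3.83 FPKM in Control and 2.61, 3.56 and 3.34 in ISRIB (−0.21, 95% interval −0.49 to 0.08), and its groups overlapped. Without ISRIB replicate 1 its value was −0.09. Slc7a6 stood at 2.86, 2.99 and 2.98 FPKM in Control and 3.38, 3.10 and 3.09 in ISRIB (0.10, 95% interval −0.08 to 0.28), with no overlap.

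Carriers of basic amino acids outside the CD98 set were led by Slc7a1 (CAT1), an arginine and lysine transporter. It had 10.4, 13.6 and 10.8 FPKM in Control and 12.8, 9.51 and 8.79 in ISRIB. The log2 fold change was −0.16 (95% interval −0.50 to 0.18), and it was −0.32 without ISRIB replicate 1 and −0.04 without Control replicate 2. Its relative Slc7a2 had 5.36 to 5.57 FPKM in Control and 4.84 to 5.66 in ISRIB. The low Slc7a3 had 0.418, 0.494 and 0.355 FPKM in Control and 0.596, 0.543 and 0.530 in ISRIB, with no overlap at 75 to 119 reads per library, but its mean of 0.489 FPKM kept it out of the test.

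Carriers of small neutral amino acids overlapped between groups. The system A carrier Slc38a2, the most abundant gene of all 43, had 57.5, 61.2 and 61.8 FPKM in Control and 65.9, 58.7 and 60.4 in ISRIB (log2 fold change 0.03, 95% interval −0.09 to 0.16, and −0.02 after TPM rescaling). Slc38a1 had 10.96 to 11.37 FPKM in Control and 9.40 to 11.7 in ISRIB. The alanine, serine and cysteine carriers Slc1a4 and Slc1a5 had log2 fold changes of −0.07 (95% interval −0.28 to 0.14) and 0.03 (95% interval −0.21 to 0.28). Slc6a9, the glycine transporter GLYT1, had 24.1, 24.5 and 23.2 FPKM in Control and 24.5, 24.4 and 21.6 in ISRIB (−0.03, 95% interval −0.17 to 0.11). Of its exonic bases 30.2% are shared with neighbours, among them B4galt2, so its reads may not be its own alone.

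Slc36a4, an amino acid transporter of the PAT family, was the only tested gene of the 43 with every ISRIB library below every Control library. It measured 12.2, 12.1 and 11.8 FPKM in Control and 11.3, 11.7 and 10.6 in ISRIB. The step was small, with a log2 fold change of −0.10 (95% interval −0.23 to 0.03, limma adjusted p = 0.417). Its relative Slc36a1, a lysosomal carrier, had 8.85 to 9.63 and 8.29 to 9.42 FPKM. The branched-chain amino acid carriers Slc43a1 (0.16) and Slc43a2 (−0.11) and the glutamate carrier Slc1a3 (0.11) were under 4 FPKM in every library and had 95% intervals of −0.12 to 0.44, −0.40 to 0.18 and −0.12 to 0.34.

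After Cbs, the widest spread within groups belonged to Slc7a8, Mthfd2, Slc7a11 and Slc7a1, whose highest values sat in the same libraries, a pattern looked for after the values were seen. These 4 had within-group SDs of 0.309, 0.271, 0.254 and 0.243 on the log2 scale, above those of 93.3% to 96.5% of the genes tested. Control replicate 2 was the highest Control library together with ISRIB replicate 1 as the highest ISRIB library for 14 of the 40 genes (35%), beside 13.5% of all genes tested. Among the transporters this held for 10 of 18, among the folate enzymes for 2 of 8 and among the synthesis genes for 2 of 14 (14.3%). Among the 21 tested genes listed as ATF4 targets it held for 10. These include Slc7a1, Slc7a5, Slc7a11, Slc3a2, Slc1a4 and Slc6a9, which are counted among the transporters too. The pattern held for 7 of 23 tested genes of a list of regulators (30.4%). Besides regulators and feedback genes of the integrated stress response, this list holds the amino acid sensing genes Castor1, Castor2, Sesn1 and Slc38a9, and Myc. Castor2 and Myc were among the 7. Atf4 itself was also among the 7, with 118, 143 and 131 FPKM in Control and 183, 144 and 138 in ISRIB.

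The same libraries stood out in immediate early genes, which cells switch on soon after stimulation. The 9 immediate early genes, among them Fos and Egr1, summed to 156, 339 and 168 FPKM in Control and 481, 191 and 165 in ISRIB, and none was at 0. ISRIB replicate 1 also held the most red cell transcripts, with a sum of 328 FPKM beside 40.5 to 75.8 in the other 5 libraries. Their part in the values of Slc7a8, Mthfd2 and Slc7a1 was not tested. Without ISRIB replicate 1, an alternative chosen after seeing the data, the remaining ISRIB libraries lay all above Control for 6 of the 40 genes (15%, beside 19.6% of all genes tested) and all below for 7 (17.5%, beside 18.2%). The 7 were Psat1, Slc7a1, Slc7a2, Slc7a5, Slc1a4, Slc38a1 and Slc36a4. With Control replicate 2 left out as well, 8 lay above and 7 below (17.5%), beside 24.3% and 22.4% of all genes tested.

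**Figure D4:**
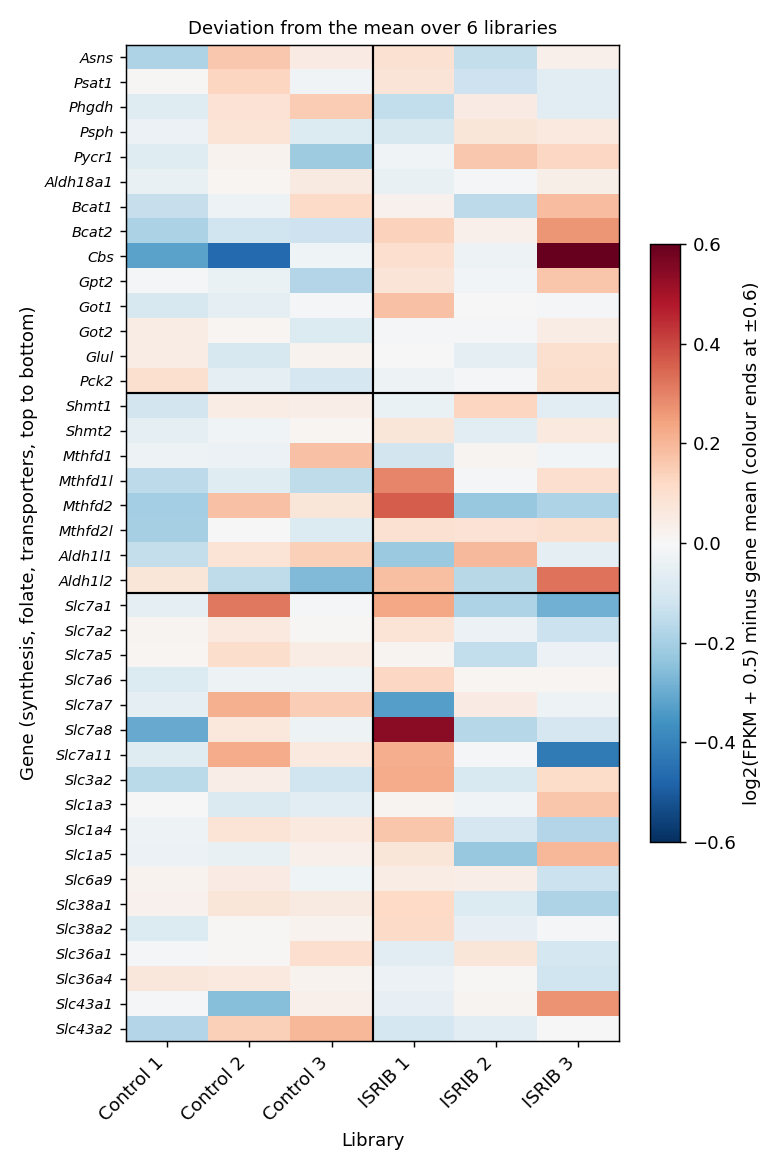
Deviation of log2(FPKM + 0.5) from each gene's mean over the 6 libraries, with the 40 tested genes as rows by class, libraries as columns, and red for above and blue for below the mean. Control 2 and ISRIB 1 are red together in Slc7a1, Slc7a11 and Mthfd2, ISRIB 1 is the darkest cell of Slc7a8 and ISRIB 3 that of Cbs.

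Grouped by what is known of their control, the genes commonly listed as ATF4 targets were set beside the others. Of 21 tested, 11 had a higher and 10 a lower estimate, with a median of 0.02, and of the other 19 genes 11 were higher and 8 lower, also with a median of 0.02. The summed FPKM of the 23 listed targets was 393, 423 and 412 in Control and 432, 393 and 407 in ISRIB. Of the 7 genes with the TGATGNAA string in their start window, printed above for 6 of them, 3 had a higher estimate (Pycr1, Got1 and Pck2) and 4 a lower one (Asns, Slc7a11, Slc1a4 and Slc7a7), with a median of −0.02. Of the 23 tested genes of the regulator list described above, 18 had a higher estimate (78.3%, beside 51.8% of all genes tested), with a median of 0.16. That median was 0.07 without ISRIB replicate 1, and 0 of the 23 passed in limma.

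Among those regulators the smallest p values belonged to Ddit3, Chac1, Gcn1 and Stc2. Gcn1, the partner through which GCN2 senses uncharged tRNA, had 21.7, 22.2 and 22.4 FPKM in Control and 19.8, 19.2 and 19.5 in ISRIB. Its ISRIB libraries all lay below Control, and the log2 fold change was −0.17 (SE 0.0433, limma adjusted p = 0.126). The stress factor Ddit3 (CHOP), at 0.43, and the glutathione-degrading Chac1, at −0.43, had adjusted p values of 0.119 each, and the secreted Stc2 had a log2 fold change of 0.24 with an adjusted p of 0.152. Chac1 and Ddit3 are both induced by ATF4 and had opposite signs here.

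Other genes of the same pathways were read from a list of 71, of which 57 were tested and 0 passed. Of the 57, 33 had a higher and 24 a lower estimate, with a median of 0.03 that was −0.02 after TPM rescaling. ISRIB lay without overlap above Control for 5 of the 57 and below for 3, beside 10.8% and 12.0% of all genes tested. Mtr, the methionine synthase that takes its methyl group from folate, had 4.91, 4.49 and 4.83 FPKM in Control and 4.03, 3.74 and 3.66 in ISRIB (−0.28, adjusted p = 0.135). The other genes of the 3 below were the folate receptor Folr1 (−0.33, adjusted p = 0.165) and Serinc3 (−0.19, adjusted p = 0.153).

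Longer genes tended to have lower estimates over all genes tested (Spearman rho −0.361, taken across genes and so given without a test). The classes differ in length, with a median implied length of 2876 bases for synthesis genes, 3205 for folate enzymes and 6278 for transporters. With that trend removed from each library, the class medians were 0.03, 0.000464 and −0.04. Bcat2 (3380 bases) had a log2 fold change of 0.28 and Mthfd1l (4546 bases) of 0.26 after the correction.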

How the data were processed

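The table the authors deposited holds FPKM of 26329 genes, 1 column per library. Per the submitters' processing notes fastp, HISAT2, HTSeq, R 3.2.0, DESeq2 and the build mm10 were used, with no role or order given. The annotation and the strand setting are not stated in these sources. The FPKM were whole reads times a library and a gene factor in 100% of genes (tolerance 0.01 read), which gave 34474821 to 38002135 reads per library and the implied gene lengths. Groups came from the sample titles.

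Values of log2(FPKM + 0.5) were tested across all genes with limma 3.58.1 in R 4.3.3 (3 libraries per group, trended empirical Bayes, two-sided), with Benjamini-Hochberg adjustment over the 12922 genes with a mean of at least 1 FPKM. Fold changes are on that scale, which understates those of low genes. The fit and the recovery of reads were tested on simulated data. Members and lists were chosen with earlier results of these data known. All 43 genes are named; values per library are given for those with an unadjusted p under 0.05, no overlap or the smallest p of a class, and for others that differ between libraries. Of the other pathway genes and the regulators, the 4 with the smallest p are named, except 1 that is not reported here, besides Atf4, chosen after its values were seen. Positions and overlaps are from GENCODE M21 (GRCm38), promoters from RefSeq. Alternatives were pseudocounts of 0.1 and 1, other filters, TPM rescaling, quantile normalization, the replicate number as a block, voom, removal of the length trend (loess, span 0.5) and leaving out each library.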

Additional observations from a re-analysis of the deposited data

How the results depend on the processing

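Under 16 alternatives, of which leaving out Control replicate 2 with ISRIB replicate 1 was chosen after seeing the data, none of the 40 tested genes had an adjusted p under 0.05. Over all genes the count of 0 became 8 with a mean of at least 5 FPKM, 11 with the replicate block and 120 in voom on recovered reads. Whether libraries with the same replicate number form a pair is not said in the labels. Same-numbered libraries had correlations of their deviations of −0.19, −0.0909 and 0.192. The other pairings ran from −0.337 to 0.355. With 3 libraries per group these values cannot settle the pairing. TPM rescaling (median over all genes −0.05) gave medians of −0.0331 for the 40 genes and −0.0199 for synthesis, with 3 genes above and 2 below without overlap, and quantile normalization 2 below. The mitochondrial median was 0.0432 with a mean of at least 5 FPKM, where fewer genes are tested, and 0.102 to 0.171 when libraries were left out. Signs turned for estimates near 0: after TPM rescaling for Psph (−0.0238), Bcat1 (−0.0159), Got2 (−0.0368), Glul (−0.0322), Pck2 (−0.0113), Shmt1 (−0.034), Shmt2 (−0.0091), Slc1a5 (−0.018) and Slc38a2 (−0.0188), after quantile normalization for Got2 (−0.0118) and Glul (−0.00745), and with the length trend removed for Got2 (−0.0644), Glul (−0.00516) and Shmt1 (−0.00196). TPM rescaling divides by the summed FPKM, which was 333172, 335850 and 339809 in Control and 348120, 348086 and 350176 in ISRIB. Why these sums differ was not tested. When libraries were left out, the range was −0.114 to 0.0617 for Asns, −0.00988 to 0.124 for Psph, −0.0397 to 0.0106 for Aldh18a1, −0.0499 to 0.121 for Bcat1, −0.0203 to 0.043 for Got2, −0.0233 to 0.0552 for Glul, −0.00183 to 0.0976 for Pck2, −0.0435 to 0.0695 for Shmt1, −0.222 to 0.0721 for Mthfd2, −0.166 to 0.0701 for Aldh1l1, −0.0474 to 0.309 for Slc7a8, −0.285 to 0.0372 for Slc7a11, −0.0592 to 0.153 for Slc1a5, −0.0582 to 0.028 for Slc6a9 and −0.0148 to 0.0678 for Slc38a2. The other 24 tested genes kept their sign under each of these alternatives. Slc1a1, Slc7a3 and Cth, with at most 90, 119 and 74 reads in a library, were too low to test.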
